A study of Mus musculus with 14 samples.

Results

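Gene expression in the extensor digitorum longus (EDL), a fast-twitch muscle of the mouse hind limb, was set against that in the soleus, a slow-twitch calf muscle, in Ts1Cje animals across all genes on the array. Ts1Cje mice model Down syndrome and are trisomic, in every tissue, for a distal stretch of chromosome 16. The arrays were chosen by their titles and numbered 7 of the 14 in the study, with 3 arrays of EDL muscle and 4 of soleus muscle from Ts1Cje animals. The other 7 arrays, 3 of EDL and 4 of soleus, came from disomic littermates (WT), and all 4 groups were on the C57BL/6 background. Age, sex and the animal behind each muscle are not given in the sources used here. The labels do not say whether same-numbered EDL and soleus samples came from the same animal, so p-values measure the spread between these samples. Cy3-labelled RNA, made from 25 ng per sample, was hybridised to 1-colour Agilent arrays, and a level below is the log2 signal relative to the 75th percentile of its array.

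Skeletal muscle fibres fall into slow type I fibres and fast type IIA, IIX and IIB fibres, named for the myosin heavy chain they carry. Slow fibres contract for long periods on fat and oxygen, whereas fast IIB fibres contract briefly and strongly on glycogen and glycolysis. Most sarcomere and calcium handling proteins exist as paired slow and fast isoforms from separate genes, and motor neuron activity, calcineurin with its NFAT targets, Sox6, Prox1 and Maf factors set which of a pair a fibre uses. The mouse EDL is built almost wholly of fast fibres, and the soleus mixes type I and type IIA fibres.

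Of 14168 genes tested, 4243 (29.9%) were called different between EDL and soleus in Ts1Cje muscle at a limma Benjamini-Hochberg adjusted p under 0.05. The EDL was higher for 2484 genes (17.5%) and lower for 1759 (12.4%). Below, a value with ± is a log2 difference, EDL minus soleus, with the standard error of the limma fit over all 14 arrays, "higher" and "lower" describe the EDL and are used where the difference was called, and values without ± listed by array are levels. Differences of at least 2-fold were called for 605 genes higher and 584 lower, and of at least 4-fold for 135 and 167. Leaving out EDL replicate 1 lowered the count of genes called lower to 1130. The median log2 difference over all genes was 0.01. All EDL arrays lay above or all below the soleus arrays for 5008 genes (35.3%). Scaling each array on the probes detected on all arrays moved the median of all genes by more than 0.1, to -0.10. That scaling turned the split to 1794 higher (40.4% of the calls) and 2650 lower, against 58.5% higher in the main scaling. List medians are therefore read beside the median of all genes, and counts of calls in a list beside the 29.9% of all genes.

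The arrays behaved alike within groups, with correlations across genes from 0.979 to 0.988, and the first principal component (53.8% of the variance) parted the muscles. Between 43.5% and 52.9% of probes were well above background on the Ts1Cje arrays, their 75th percentiles ran from 65.3 to 144 units of intensity, and no array had a saturated probe. Soleus Ts1Cje replicate 1 shared a slide with every EDL array, whereas the remaining soleus arrays were on another slide. The Ts1Cje arrays of the 2 slides did not overlap in detection or brightness. The slide of the EDL had 43.5% to 47.2% of probes well above background and 75th percentiles of 65.3 to 104. The other slide had 47.6% to 52.9% and 115 to 144. Soleus replicate 1, at 43.7% and 66.3, lay among the EDL arrays in both measures. On the first component that replicate was at 38.1, among the other Ts1Cje soleus arrays at 35.7 to 41.8, while the Ts1Cje EDL arrays were at -50.3 to -39.1. Of the 4243 called genes, 4068 (95.9%) had soleus replicate 1 on the soleus side of all 3 EDL arrays. That array was part of the fit that made the calls, so this share is no test of a slide effect. A fit with slide as a block, which leaves the difference to the EDL arrays and that 1 soleus array, called 1261 genes higher and 809 lower. Of the 54 tested genes of the extra segment, 52 had a higher mean in Ts1Cje than in WT EDL and 47 in soleus. Their median log2 differences were 0.52 and 0.65, so the genotype labels and these levels went the same way. Of all 14168 genes, 7084 were higher in Ts1Cje EDL and 8889 in soleus, where their median was 0.07. Of 25 disomic chromosome 16 genes, 14 and 19 were higher, with medians of 0.01 and 0.13. The muscle labels were checked on defining genes: every soleus array lay above every EDL array for Myh7, Tnni1 and Tnnt1, and every EDL array above every soleus array for Myh4, Actn3 and Pvalb.

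Windows of 150 bases just upstream of the start of 8 genes are shown first, chosen to stand for the isoform pairs and the large differences described below: fast myosin, fast calcium pump and fast troponin C on the EDL side, and slow myosins, slow troponin C, slow calsequestrin and the LIM protein Fhl2 on the soleus side. Sequences and positions are from RefSeq on GRCm38.p6, written 5′ to 3′ on the strand of the gene, and of 14168 genes tested 10659 had a promoter in that table. Capitals mark matches on either strand to 6 motifs. The E-box, CANNTG, is the site of MyoD and its relatives. The core of the sites that NFAT factors bind under calcineurin control was searched as GGAAA. The element of the estrogen-related receptors of oxidative metabolism was searched as TNAAGGTCA. The site of TEAD factors known as MCAT, the MEF2 consensus and the CArG box of SRF were the other motifs, MCAT being searched as CATTCC.
Myh4 (chr11:67237662-67237811, plus strand): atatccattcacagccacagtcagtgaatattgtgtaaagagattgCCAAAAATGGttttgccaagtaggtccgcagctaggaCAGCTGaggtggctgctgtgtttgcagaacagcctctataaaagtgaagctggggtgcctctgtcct
Atp2a1 (chr7:126463074-126463223, minus strand): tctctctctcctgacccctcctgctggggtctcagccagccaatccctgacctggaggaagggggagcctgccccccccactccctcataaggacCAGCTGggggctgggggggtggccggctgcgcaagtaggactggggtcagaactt
Tnnc2 (chr2:164779735-164779884, minus strand): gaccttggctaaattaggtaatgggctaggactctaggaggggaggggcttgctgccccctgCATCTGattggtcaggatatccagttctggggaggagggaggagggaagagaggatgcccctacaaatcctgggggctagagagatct
Myh7 (chr14:54994627-54994776, minus strand): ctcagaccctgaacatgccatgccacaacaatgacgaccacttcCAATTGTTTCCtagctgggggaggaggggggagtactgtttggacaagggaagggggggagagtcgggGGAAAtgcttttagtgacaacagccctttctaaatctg
Myh7b (chr2:155611093-155611242, plus strand): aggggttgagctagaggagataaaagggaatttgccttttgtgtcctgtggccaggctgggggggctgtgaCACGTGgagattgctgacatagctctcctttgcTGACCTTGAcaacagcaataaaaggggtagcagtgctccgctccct
Tnnc1 (chr14:31208162-31208311, plus strand): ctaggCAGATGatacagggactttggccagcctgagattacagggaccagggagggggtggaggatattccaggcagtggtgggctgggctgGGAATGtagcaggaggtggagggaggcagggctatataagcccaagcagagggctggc
Casq2 (chr3:102086265-102086414, plus strand): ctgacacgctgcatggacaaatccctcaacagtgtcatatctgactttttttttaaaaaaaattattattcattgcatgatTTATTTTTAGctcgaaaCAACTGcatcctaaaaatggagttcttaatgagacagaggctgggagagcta
Fhl2 (chr1:43196762-43196911, minus strand): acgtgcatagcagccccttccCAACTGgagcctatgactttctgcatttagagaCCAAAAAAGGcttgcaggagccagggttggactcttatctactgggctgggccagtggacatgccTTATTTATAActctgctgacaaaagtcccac
Each of the 8 windows holds an E-box. Myh4 and Fhl2 hold a CArG box, Casq2 and Fhl2 a MEF2 match, Tnnc1 an MCAT match, Myh7b an estrogen-related receptor element and Myh7 the NFAT core at 2 places, one of them next to its E-box. Over the 250 bases upstream, an E-box was found in 59.3% of the windows of all genes tested, in 65.4% of the 136 windows of genes called at least 4-fold higher in EDL and in 73.3% of the 187 windows of genes called at least 4-fold lower. The estrogen-related receptor element was in 0.824% of all windows, in 1 of 136 (0.735%) and in 7 of 187 (3.74%) in the same order. The MEF2 consensus was in 1.85%, 3.68% and 3.74%, the CArG box in 1.30%, 2.94% and 2.67%, MCAT in 11.1%, 13.2% and 10.2%, and the NFAT core in 54.1%, 53.7% and 59.4%. These are matches of letters only, E-boxes can overlap the other motifs, and windows of 1 gene can overlap each other.

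The myosin heavy chains, the motors of the thick filament, separated the muscles at both ends of the fibre spectrum. Myh7, the slow type I chain, was at 3.07, 2.37 and 5.65 in EDL replicates 1 to 3 and at 10.66, 10.18, 10.55 and 10.56 in soleus replicates 1 to 4, a difference of -6.79 ± 1.2 (adjusted p = 0.00102). Every soleus array lay above every EDL array, and EDL replicate 3 stood above the other EDL arrays. Myh4, the IIb chain, was at 11.79, 11.84 and 11.25 in EDL and at 5.69, 7.07, 4.42 and 3.88 in soleus, a difference of 6.36 ± 0.58 (adjusted p = 6.53e-06). The EDL arrays were close together and the soleus arrays spread over more than 3 log2 units, with replicate 2 highest. Myh2, the IIa chain, was lower in EDL by the same ordering of arrays, with EDL at 7.82, 8.45 and 9.47, soleus at 11.06, 10.48, 10.41 and 10.69 and a difference of -2.08 ± 0.45 (adjusted p = 0.00416). Myh1, the IIx chain, was at 9.19, 9.29 and 9.83 in EDL and 8.80, 8.95, 8.95 and 8.99 in soleus, and its difference of 0.51 ± 0.21 did not pass (adjusted p = 0.0772) although the arrays did not overlap, with a sign that turned under quantile normalization. Myh7b, a slow chain of extraocular and spindle fibres that also hosts a muscle microRNA, differed by -6.45 ± 0.53. Of the developmental chains, embryonic Myh3 was lower in EDL at -2.22 ± 0.42 and the perinatal Myh8 probe was higher by 1.0 ± 0.17, the latter not called with slide as a block (0.64, adjusted p = 0.0746) or under quantile normalization (adjusted p = 0.355). The heavy chain genes of chromosome 11 are near-identical copies, and the values of their probes, Myh8 above all, are uncertain in how far 1 probe reads another gene.

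Troponin, which gates contraction by calcium, differed by isoform in all 3 subunits, with a large difference on the slow side and a small one on the fast side. Tnni1, the slow inhibitory subunit, was at 0.93, 0.81 and 2.62 in EDL and 8.0, 8.09, 8.0 and 7.77 in soleus, and Tnni2, its fast partner, at 12.10, 11.97 and 11.62 and 11.33, 10.86, 10.95 and 11.00. The differences were -6.51 ± 0.54 and 0.86 ± 0.15. Tnnc1, the slow calcium-binding subunit whose promoter window is given above, was at 0.06, -0.24 and 1.90 in EDL and 7.16, 6.98, 7.21 and 6.92 in soleus, a difference of -6.50 ± 0.61, against 0.84 ± 0.17 for fast Tnnc2. Tnnt1 and Tnnt3, the slow and fast tropomyosin-binding subunits, differed by -5.75 ± 0.59 and 1.04 ± 0.12. In each pair the soleus arrays did not overlap the EDL arrays for either isoform, and for all 3 slow genes EDL replicate 3 was the highest EDL array. With slide as a block Tnni2 (0.57, adjusted p = 0.0896) and Tnnc2 (0.45, adjusted p = 0.210) were not called, nor were they under quantile normalization (adjusted p = 0.194 and 0.655), whereas the slow subunits and Tnnt3 were called in both fits.

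**Figure D1:**
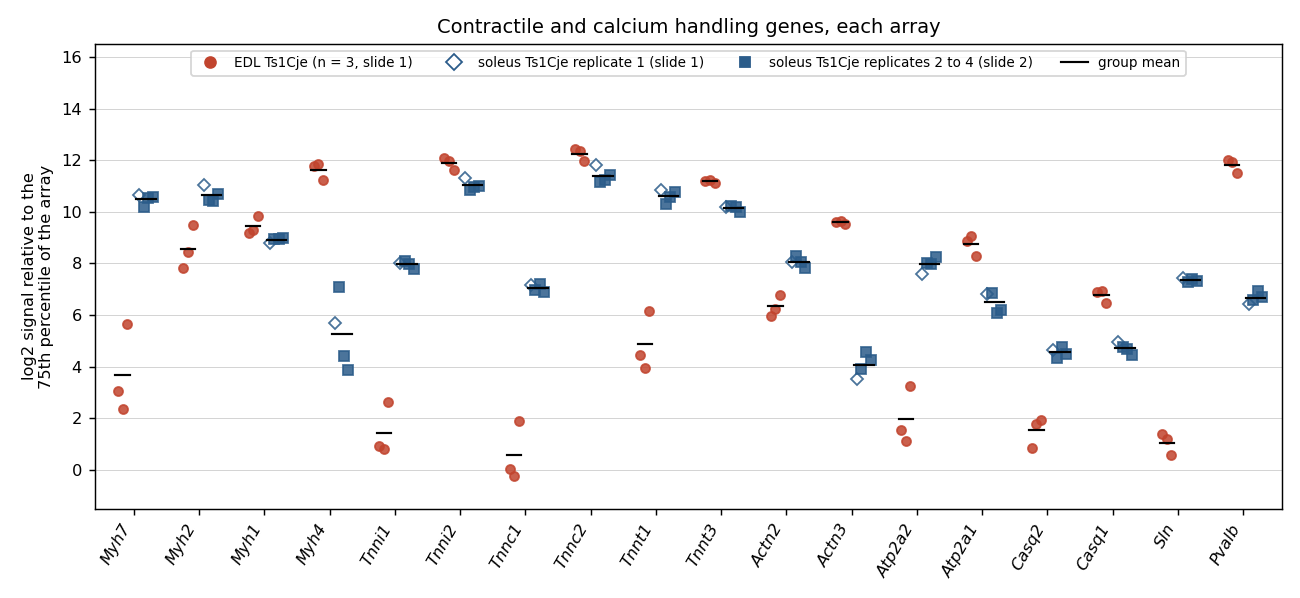
Each point is 1 array of Ts1Cje muscle, with the gene on the x axis and its log2 signal relative to the 75th percentile of the array on the y axis, red circles for EDL (n = 3), blue markers for soleus (n = 4, open for the array that shares the slide of the EDL) and black bars for group means. Slow isoforms (Myh7, Tnni1, Tnnc1, Tnnt1, Atp2a2, Casq2, Sln) lie far lower in EDL, with EDL replicate 3 the highest EDL array for each of them but Sln. Myh4, Actn3 and Pvalb lie far higher, and Tnni2, Tnnc2, Tnnt3, Atp2a1 and Casq1 lie higher by about 1 to 2 units. Myh2 (-2.08) and Actn2 (-1.72) lie lower, and Myh1 (0.51) was not called.

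The light chains, tropomyosins and Z-disc proteins followed the same division. Myl2 and Myl3, the slow regulatory and essential light chains, were lower in EDL at -5.94 ± 0.85 and -6.34 ± 0.78, and Myl6b, a slow essential chain, at -4.49 ± 0.31. Myl1 and Mylpf, their fast counterparts, were higher by 1.19 ± 0.18 and 1.65 ± 0.20. Tpm3, slow tropomyosin, was at 2.10, 1.99 and 3.33 in EDL and 8.58, 8.13, 8.57 and 8.66 in soleus, with a difference of -6.01 ± 0.46 on the probe used and between -6.26 and -1.57 on its 3 kept probes. Tpm1, with 5 kept probes from -0.17 to 0.96, was 0.96 ± 0.14 on the brightest. Actn3, the Z-disc actinin found in fast fibres alone, was at 9.60, 9.63 and 9.53 in EDL and 3.54, 3.93, 4.56 and 4.25 in soleus, a difference of 5.52 ± 0.30 (adjusted p = 1.33e-07), while Actn2, the actinin of all fibres, was lower at -1.72 ± 0.23. The calsarcins Myoz1 and Myoz3 were higher by 1.95 and 1.71 and slow Myoz2 lower at -3.72 ± 0.32. Mybpc2, fast myosin binding protein C, was at 9.16, 9.25 and 9.16 in EDL and 3.29, 3.85, 4.55 and 4.48 in soleus, a difference of 5.15 ± 0.34. Slow Mybpc1 was at 8.56, 8.51 and 8.44 and 8.42, 8.44, 8.46 and 8.32, overlapped, and at 0.09 ± 0.10 did not pass (adjusted p = 0.517), with a sign that turned under 3 other scalings or background corrections and on the mean of its probes.

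Of 17 fast contractile genes, 14 were called higher, 2 lower and 1 was not called, with a median of 1.19 against 0.01 for all genes. Mylk2, the myosin light chain kinase of skeletal muscle, was higher by 2.36 ± 0.16, the M-band protein Myom2 by 1.78 ± 0.15 and the thin filament capper Tmod4 by 0.96 ± 0.09. The members called lower were Myh2 and Smtnl1 (-2.75 ± 0.39, a smoothelin-like protein of the contractile apparatus, named here after its value was seen). Of 16 slow contractile genes, 0 were called higher, 14 lower and 2 not, with a median of -5.12. For all 14 of these, EDL replicate 3 was the highest of the EDL arrays, against 962 of the 1759 genes called lower (54.7%). Without EDL replicate 3 the median of the list was -5.51, and whether that array held more slow fibres or other tissue was not tested.

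Calcium handling carried the same isoform logic. Pvalb, the cytosolic calcium buffer of fast fibres, was at 11.99, 11.94 and 11.52 in EDL and 6.42, 6.59, 6.93 and 6.72 in soleus, a difference of 5.16 ± 0.22 (adjusted p = 3.47e-08). Atp2a1, the fast sarcoplasmic reticulum calcium pump, was at 8.85, 9.07 and 8.30 and 6.83, 6.87, 6.10 and 6.2, higher in EDL by 2.24 ± 0.24. Atp2a2, the slow and cardiac pump, was at 1.54, 1.13 and 3.27 and 7.60, 8.03, 7.98 and 8.24, lower at -5.99 ± 0.52. No array of 1 muscle reached the other muscle for any of these genes. Sln, a small inhibitor of the pump, was lower in EDL at -6.30 ± 0.52, with EDL at 1.39, 1.19 and 0.58 and soleus at 7.43, 7.28, 7.4 and 7.33. Mrln, the inhibitor of fast fibres, was higher by 1.67 ± 0.18. The calsequestrins that store calcium split into fast Casq1 at 2.05 ± 0.15 and slow Casq2 at -3.02 ± 0.24.

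Of 19 fast calcium handling genes 18 were called higher and 1 lower (median 0.96), among them the junctophilins Jph1 (1.42 ± 0.13) and Jph2 (2.06 ± 0.22), which hold the reticulum to the surface membrane, and the kinase gene Camk2a (2.39 ± 0.14). The count of 1 lower became 0 without EDL replicate 1. The slow calcium handling list was mixed, with 4 higher, 6 lower and 3 not called of 13 tested and a median of -0.39. Its lower members included S100a1 (-0.93 ± 0.13) and Rcan2 (-1.76 ± 0.23), a feedback inhibitor of calcineurin. The calcineurin subunit Ppp3ca (1.18 ± 0.12) and Nfatc1 (1.04 ± 0.20), a factor it activates, were higher in EDL. The other kept probe of Nfatc1 was at 0.23. Pln, the pump inhibitor phospholamban, was well above background on 0 EDL and 2 soleus arrays and was not tested.

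Membrane excitability genes were higher in EDL for 11 of 21 members, lower for 5 and not called for 5. That share of 76.2% called stood against 29.9% of all genes. Their median was 0.42, and 3 were lower when slide was a block. The chloride channel Clcn1, which steadies the resting potential, was at 1.45, 1.51 and 1.48 in EDL and -0.10, -0.07, 0.06 and 0.14 in soleus, a difference of 1.47 ± 0.11. The potassium channel gene Kcnc4 differed by 3.82 ± 0.24, Kcnj12 by 1.69 ± 0.20 and the KATP pore Kcnj11 by 1.03 ± 0.13. The sodium channel of muscle, Scn4a, was higher by 0.93 ± 0.13. The sodium pump subunit Atp1b2 was higher by 2.76 ± 0.18.

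At the neuromuscular junction, the esterase gene Ache was at 1.07, 1.14 and 0.92 in EDL and -1.69, -1.42, -2.04 and -2.05 in soleus, higher by 2.85 ± 0.28 with no overlap. Chrne, the adult subunit of the acetylcholine receptor, was higher by 2.36 ± 0.32 with 3 of 4 soleus arrays well above background, and Ufsp1, a UFM1 protease gene, by 1.79 ± 0.13. Musk, the receptor kinase that builds the junction, was lower at -1.43 ± 0.42 (adjusted p = 0.0230), a call lost without EDL replicate 2 (-1.03, adjusted p = 0.107), without soleus replicate 2 (-1.11, adjusted p = 0.0560) and with slide as a block (-0.85, adjusted p = 0.406). Of 16 junction genes tested, 5 were higher, 1 lower and 10 not called, a share of 37.5% called, near the 29.9% of all genes. Their median was 0.13, of the other sign in 2 of 21 alternatives, among them slide as a block (-0.04). The count higher was 3 without any 1 of EDL replicates 2 or 3 or soleus replicates 1 or 2. The count of 1 lower was 0 without EDL replicate 2, without soleus replicate 2 and with slide as a block, and 2 without EDL replicate 3. Of 11 genes that respond to denervation, 2 were higher and 5 lower (median -0.80), with 3 and 2 lower without EDL replicate 1 and 2, and 0 higher and 2 lower with slide as a block. Members called included the stress gene Gadd45a (1.42 ± 0.33), not called with slide as a block (0.99, adjusted p = 0.206), and Myog (-1.47 ± 0.28), the differentiation factor myogenin. Its relative Myod1 went the other way at 1.13 ± 0.26, with EDL at 0.69, 0.12 and 1.02 and soleus at -0.86, 0.19, -0.92 and -0.46, where soleus replicate 2 overlapped the EDL.

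Glycolysis and glycogen genes lay on the EDL side. Of 33 genes of glycolysis and lactate handling, 21 were called higher in EDL, 1 lower (2 without EDL replicate 3) and 11 not, with a median of 1.14. Pgm1 (phosphoglucomutase) was at 8.72, 8.66 and 8.82 in EDL and 6.65, 6.58, 6.74 and 6.66 in soleus, a difference of 2.08 ± 0.10 (adjusted p = 4.45e-08). Gpd1, which shuttles glycolytic electrons as glycerol phosphate, was higher by 2.97 ± 0.17. The enzymes Pfkm, Tpi1, Pgk1, Eno3 and Pkm, which span the pathway from phosphofructokinase to pyruvate kinase, were higher by 1.49, 1.59, 1.75, 1.86 and 1.53, each with a standard error of at most 0.13. No array of either muscle overlapped the other for these genes, which were named for their small p. Over the 33 genes the EDL arrays lay above all soleus arrays for 21 and below them for 1. Of all genes, 35.3% did not overlap in either direction.

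The lactate dehydrogenase subunits parted, with Ldha, the muscle form, at 10.44, 10.38 and 10.26 in EDL and 8.67, 8.26, 8.26 and 8.51 in soleus (1.94 ± 0.12) and Ldhb, the heart form, at 5.55, 5.45 and 6.37 and 8.13, 8.39, 8.23 and 8.27 (-2.47 ± 0.22, the 1 member lower). Of the lactate carriers, Slc16a3 (MCT4), the exporter of glycolytic fibres, was higher by 3.37 ± 0.27. Slc16a1 (MCT1), the carrier of oxidative fibres, was at -0.36 ± 0.22, overlapped and did not pass (adjusted p = 0.239), with the sign turned under normexp correction. Of 18 glycogen genes, 10 were higher and 1 lower (median 1.07), the lower count at 0 without EDL replicate 1 or 2 and with slide as a block, and at 2 without EDL replicate 3. Phosphorylase Pygm was higher by 1.84 ± 0.12, its kinase subunits Phkg1, Phka1 and Phkb by 2.70 ± 0.13, 2.68 ± 0.19 and 2.45 ± 0.16 and lysosomal Gaa by 1.36 ± 0.09. The glycogen anchors Ppp1r3a and Stbd1, which bind a phosphatase subunit and glycogen itself, were higher by 1.22 ± 0.11 and 2.11 ± 0.23.

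Genes that buffer ATP were higher for 10 of 23, lower for 2 and not called for 11 (median 0.52). Ckm, muscle creatine kinase, differed by 1.58 ± 0.12, adenylate kinase Ak1 by 0.79 ± 0.11 (not called under quantile normalization, adjusted p = 0.0531) and Adssl1 of the purine nucleotide cycle by 1.17 ± 0.11. AMP deaminase split by isoform: Ampd1, the form of skeletal muscle, was higher by 2.01 ± 0.10, and Ampd3 was lower at -2.69 ± 0.52. Ampd3 was well above background on 1 of 3 EDL arrays, with EDL at -4.95, -4.90 and -2.97 and soleus at -1.65, -0.79, -1.63 and -2.27, and was not called under normexp correction (adjusted p = 0.0723). Subunits of AMPK, the kinase that senses low energy, were called higher for 4 of 7, including regulatory Prkab2 at 3.08 ± 0.14, regulatory Prkag3 at 3.18 ± 0.21 and catalytic Prkaa2 at 1.08 ± 0.12. Prkab2 was at 5.61, 5.41 and 5.26 in EDL and 2.37, 2.38, 2.34 and 2.31 in soleus, where the 4 soleus arrays lay within 0.1 of each other. The count of 2 lower fell to 1 without any 1 of the EDL arrays or soleus replicate 1 or 2.

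**Figure D2:**
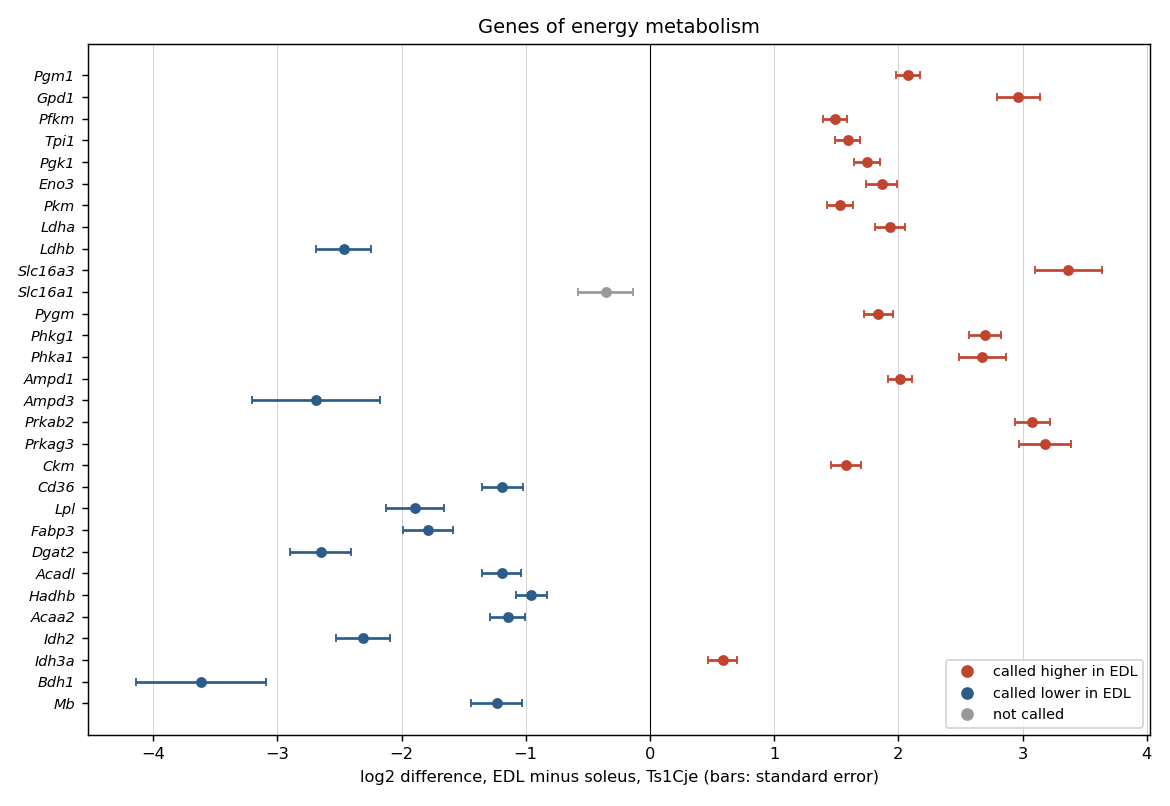
Log2 difference between EDL and soleus of Ts1Cje mice (x axis, bars show the standard error of the limma fit) for genes of energy metabolism (y axis), red where called higher in EDL, blue where called lower and grey where not called. Glycolytic, glycogen and AMPK genes lie between about 1 and 3.4, and genes of fat use shown lie between about -1 and -2.7, with Ldhb, Idh2, Ampd3 and Bdh1 the lowest of their pathways shown.

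Genes of fat use lay on the soleus side. Of 40 genes of fatty acid uptake and oxidation, 29 were called lower in EDL, 1 higher and 10 not (median -0.81). Fabp3, which carries fatty acids in the cytosol, was at 8.15, 7.67 and 8.51 in EDL and 10.24, 9.79, 9.84 and 9.72 in soleus, a difference of -1.79 ± 0.20. Lpl, which frees fatty acids from lipoproteins, was lower at -1.89 ± 0.24, the membrane carrier Cd36 at -1.19 ± 0.17 and the triglyceride enzyme Dgat2 at -2.65 ± 0.25. In the beta-oxidation spiral the differences were -1.19 ± 0.16 for Acadl, -0.95 ± 0.12 for Hadhb, -1.15 ± 0.14 for Acaa2 and -0.88 ± 0.12 for Eci1. The EDL arrays lay below all soleus arrays for every one of these genes, which were named for their small p. Over the 40 genes this held for 28, with 1 the other way. Of all genes, 35.3% did not overlap in either direction.

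Calls in the citric acid cycle (26.9%) were near the 29.9% of all genes, and those in the respiratory chain were fewer. Of 26 cycle genes 3 were higher, 4 lower and 19 not called (median 0.01, with 2 lower without EDL replicate 1 and with slide as a block). Idh2, NADP-linked mitochondrial isocitrate dehydrogenase, was at 6.15, 6.12 and 7.10 in EDL and 8.81, 8.51, 8.71 and 9.04 in soleus, lower at -2.31 ± 0.22, while Idh3a of the NAD-linked enzyme was higher by 0.59 ± 0.12 (not called under normexp, adjusted p = 0.0616). Mdh1, cytosolic malate dehydrogenase, was lower at -0.79 ± 0.11, and Suclg1 of succinyl-CoA ligase was higher by 0.61 ± 0.11, not called with slide as a block (0.40, adjusted p = 0.0949). Of 37 complex I genes 5 were higher and 1 lower (median 0.07), of 43 genes of complexes II to V 0 were higher and 3 lower (median -0.09), and of 76 mitochondrial ribosomal proteins 7 were higher and 6 lower (median 0.03). Named among them, Ndufb3 of complex I was lower at -0.57 ± 0.10 and Cox8a, a cytochrome oxidase subunit, at -0.62 ± 0.10. Leaving out single arrays moved these small counts to between 2 and 6, between 1 and 4 and between 2 and 8 for complex I higher, complexes II to V lower and ribosomal proteins higher. EDL replicates 1 and 3 and soleus replicates 2, 3 and 4 lowered the first by over 1.5 times, EDL replicates 1 and 2 and soleus replicate 2 the second, and EDL replicates 1 and 3 and soleus replicate 4 the third. The complex I count of 1 lower was 2 without EDL replicate 3, and the ribosomal count of 6 lower was 3 without EDL replicate 1 or 2. With slide as a block the counts higher and lower were 1 and 1 for complex I, 0 and 2 for complexes II to V and 0 and 2 for ribosomal proteins. The share of calls in complex I (16.2%), complexes II to V (6.98%) and the mitochondrial ribosome (17.1%) stood below the 29.9% of all genes, and in the fat list (75%) above it. The medians of the cycle, complex I and ribosomal lists were of the other sign under normexp, quantile and detected-probe scaling, among other settings, while that of complexes II to V, with 33 of 43 members below 0, was below 0 under every alternative, from -0.39 to -0.03.

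Bdh1, a mitochondrial enzyme of ketone body use that lies on chromosome 16 outside the extra segment, was at 1.58, 1.05 and 3.33 in EDL and 5.36, 6.07, 5.39 and 5.57 in soleus, lower at -3.61 ± 0.52 with EDL replicate 3 highest of the EDL. Mb, the oxygen store myoglobin, was lower at -1.23 ± 0.20, and Bnip3, a mitophagy receptor induced by low oxygen, at -0.96 ± 0.12. Of 7 small heat shock proteins and partners 0 were higher and 3 lower (median -0.53, with 1 lower without EDL replicate 1 or 2 or with slide as a block, and 1 higher without soleus replicate 2). Of 16 large chaperones 2 were higher and 4 lower (median -0.08, of the other sign with slide as a block, where 2 were lower). Without EDL replicate 3 or soleus replicate 1 or 4, 1 large chaperone was higher. Members called lower included Hspb6 (-0.79 ± 0.15), Hspa2 (-1.86 ± 0.17), the co-chaperone Bag3 (-1.02 ± 0.15) and Hspa1a (-1.71 ± 0.46, not called with slide as a block, -1.08, adjusted p = 0.316). Unc45b, the chaperone that folds myosin, was higher by 0.90 ± 0.10. Smox, spermine oxidase, was at 6.89, 5.82 and 6.42 in EDL and 2.23, 2.36, 2.03 and 2.06 in soleus, a difference of 4.20 ± 0.33, and Gpt2, the mitochondrial alanine transaminase, differed by 3.53 ± 0.34.

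**Figure D3:**
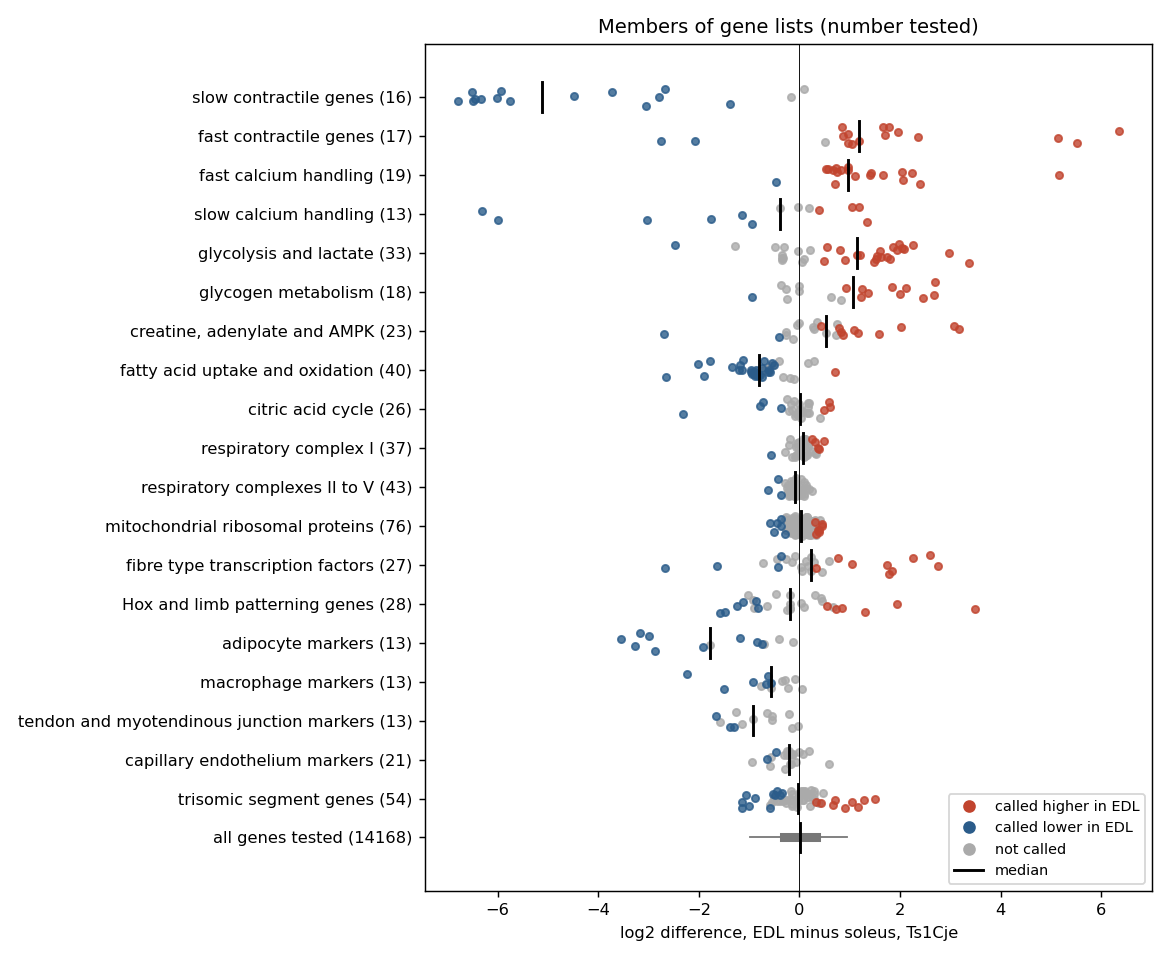
Each point is a gene of the list on the y axis (number tested in parentheses) at its log2 difference between EDL and soleus of Ts1Cje mice on the x axis, red where called higher in EDL, blue where called lower, grey where not called, with black bars for medians. The lowest row gives all 14168 genes as a thin line over most of their range and a thick line over the interquartile range. Slow contractile genes (median -5.12), fatty acid genes (-0.81) and adipocyte markers (-1.78) lie left, and fast contractile (1.19), fast calcium (0.96), glycolysis (1.14) and glycogen genes (1.07) lie right.

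Regulators of fibre type were higher for 9 of 27 tested, lower for 4 and not called for 14 (median 0.22), with the lower count at 2 without EDL replicate 1 or 2 or soleus replicate 2 or 3 and at 1 with slide as a block. Maf, a large Maf factor of IIb fibres, was at 3.32, 3.53 and 2.87 in EDL and 0.54, 0.29, 0.60 and 0.51 in soleus, a difference of 2.75 ± 0.26. Sox6, a repressor of slow genes, was higher by 2.60 ± 0.29 with soleus at -2.48, -1.73, -2.49 and -2.03, 3 of these 4 arrays well above background. Tbx15, a factor of glycolytic fibres, was higher by 1.75 ± 0.18, the orphan receptor Nr4a1 by 2.25 ± 0.34 and Tbx1 by 1.84 ± 0.39. Bhlhe41, a repressor that also serves the clock, was higher by 1.79 ± 0.29, not called with slide as a block (1.06, adjusted p = 0.0688). For a gene not well above background on any array of a muscle the difference is a lower bound, the mean of the brighter muscle over the lowest signal that counts as above background. Prox1, a factor of slow fibres, was so in EDL and was at least 1.37-fold lower in EDL (measured log2 difference -2.68, and not called under normexp, adjusted p = 0.181).

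Among nuclear receptors of oxidative metabolism, Esrrb was at 0.56, 0.24 and 1.1 in EDL and 2.74, 3.16, 2.98 and 3.11 in soleus, lower at -2.36 ± 0.19, and Esrrg was at -0.14, -0.28 and 0.76 and 1.67, 3.51, 2.24 and 2.34, lower at -2.33 ± 0.38. These are the estrogen-related receptors, whose element stands in the Myh7b window above, and Esrrg was not called with slide as a block (-1.56, adjusted p = 0.0645). Rora, a receptor linked to the clock, was higher by 1.1 ± 0.21. Ppargc1a, the PGC-1alpha coactivator of mitochondrial genes, was at 3.62, 2.68 and 2.89 in EDL and 2.44, 4.01, 2.71 and 3.02 in soleus, overlapped and at 0.02 ± 0.38 did not pass (adjusted p = 0.978), with no stable sign across settings. Of 25 genes of this list 1 was higher and 5 lower (median -0.03, of either sign by setting), the latter 3 without EDL replicate 1 or 2 or soleus replicate 2 and the former 2 without EDL replicate 2 or soleus replicate 1 or 2. With slide as a block 2 were lower.

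Patterning genes that mark position in the limb were called in 12 of 28 tested (42.9%, against 29.9% of all genes), 6 in each direction. Their median was -0.19, of the other sign with slide as a block, where 4 were higher and 2 lower. Zic1, a zinc finger factor of the embryo, was at 1.15, 1.24 and 0.68 in EDL and -3.01, -1.83, -2.52 and -2.48 in soleus, a difference of 3.49 ± 0.29 on the probe used (3 of 4 soleus arrays well above background) and 0.39 on its other kept probe. Of the HoxA genes that pattern the distal limb, Hoxa11 was higher by 1.31 ± 0.26 and Hoxa13 by 1.93 ± 0.45, Hoxa13 well above background on 2 of 4 soleus arrays and not called with slide as a block (1.87, adjusted p = 0.104). Tbx4, which specifies hind limb, was lower at -1.48 ± 0.22, with EDL at -1.44, -1.35 and -0.85 and soleus at 0.36, 0.37, 0.42 and -0.09. Hoxc5 was lower at -0.82 ± 0.15 (not called under normexp, adjusted p = 0.431), Pitx3 at -1.13 ± 0.20 and Meis1 at -1.25 ± 0.30, the latter pair not called with slide as a block (-0.82, adjusted p = 0.0746 and -0.86, adjusted p = 0.225).

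Markers of cells other than muscle fibres were examined because whole muscles were taken. In such bulk RNA, fewer cells of a type and less RNA per cell cannot be told apart. Adipocyte markers were lower in EDL for 9 of 13 tested (16 listed), 0 were higher and 4 not called (median -1.78). Adipoq (adiponectin) was at -2.25, -0.91 and -1.41 in EDL and 2.22, 1.70, 1.99 and 0.67 in soleus, a difference of -3.17 ± 0.87 (adjusted p = 0.0154). Plin1, the fat droplet coat, was not well above background on any EDL array and was at least 4.90-fold lower there (adjusted p = 0.0144), with soleus at 0.11, -1.17, 0.02 and -1.47. Both calls were lost without EDL replicate 1 (Adipoq -2.81, adjusted p = 0.0666, Plin1 -2.68, adjusted p = 0.0726) and with slide as a block (-3.74, adjusted p = 0.0849 and -4.01, adjusted p = 0.0692). Cidec, a droplet fusion protein well above background on 2 of 3 EDL arrays, was lower at -3.55 ± 0.72, the complement protease Cfd (adipsin) at -2.99 ± 0.72 (not called with slide as a block, -3.59, adjusted p = 0.0508), Cidea at -2.87 ± 0.26, Pparg at -0.84 ± 0.12 and Fabp4 at -0.74 ± 0.11. Soleus replicate 4 was the lowest soleus array for Adipoq, Plin1, Cidec and Cfd, and EDL replicate 1 the lowest EDL array. The summed level of the tested adipocyte markers, on the linear scale relative to the 75th percentile, ran from 80.0 to 98.5 in EDL and from 154 to 253 in soleus. Without EDL replicate 1 the list held 5 calls, and with slide as a block 4. The part of adipocyte RNA in the differences of shared genes such as Lpl, Cd36 and Dgat2 was not tested.

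Macrophage markers were lower for 6 of 13 tested and higher for 0, a share of 46.2% called against 29.9% of all genes. Their median was -0.57, with 3 lower without EDL replicate 2 and 4 with slide as a block. The summed level was 144 to 168 in EDL and 181 to 193 in soleus. Cx3cr1, the fractalkine receptor, was not well above background on any EDL array and was at least 3.45-fold lower there, a call absent under normexp (adjusted p = 0.435). The complement gene C1qc was lower at -0.92 ± 0.17 and Lyve1, of resident macrophages and lymph vessels, at -1.51 ± 0.30, not called with slide as a block (-1.53, adjusted p = 0.0521). Of 13 tendon and junction markers 3 were lower and 0 higher, a share of 23.1% called, below the 29.9% of all genes. Their median was -0.93, with 1 lower without EDL replicate 1, soleus replicate 1 or soleus replicate 3, and 0 with slide as a block. Their summed levels were 61.9 to 72.5 in EDL and 89.1 to 138 in soleus. Col12a1, a fibril-linking collagen, was at -0.41, -0.21 and -0.65 in EDL and 1.39, 1.11, 1.52 and 0.95 in soleus (-1.67 ± 0.43), not called with slide as a block (-1.82, adjusted p = 0.0910). Among 20 collagens 6 were lower and 0 higher, a share of 30% called, the same as the 29.9% of all genes. Their median was -0.25, with 3 lower without EDL replicate 1 or with slide as a block and 2 without EDL replicate 3. Col8a1 was lower at -1.86 ± 0.27.

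Few markers of other cell types were called, from 0% to 22.2% of each list below against 29.9% of all genes. Of 21 capillary endothelium markers 2 were lower (0 without EDL replicate 1 or soleus replicate 3, and 1 without EDL replicate 2 or soleus replicate 2), and 1 with slide as a block, with summed levels of 344 to 426 in EDL and 361 to 416 in soleus. Of 13 pericyte and smooth muscle markers 1 was lower (2 without EDL replicate 3), and the summed levels were 275 to 306 and 296 to 305. Of 12 Schwann cell and axon markers 2 were lower and 0 higher (1 lower without EDL replicate 2 or soleus replicate 2, 1 higher without soleus replicate 3, and 0 lower and 1 higher with slide as a block), and the summed levels were 106 to 149 and 126 to 370. Of 10 tested markers of T, B and mast cells (15 listed) 0 were called (4 lower without EDL replicate 2 and 3 without soleus replicate 4), with summed levels of 28.7 to 34.9 and 31.5 to 34.8, and of 4 tested neutrophil markers (10 listed) 0 were called in the fit of all arrays or with any 1 array left out. Red blood cell markers were higher for 2 of 9, although their median was -0.36, and summed to 315 to 757 in EDL and 615 to 846 in soleus. EDL replicate 2 was the low EDL array for them, and without it their median was 0.018.

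**Figure D4:**
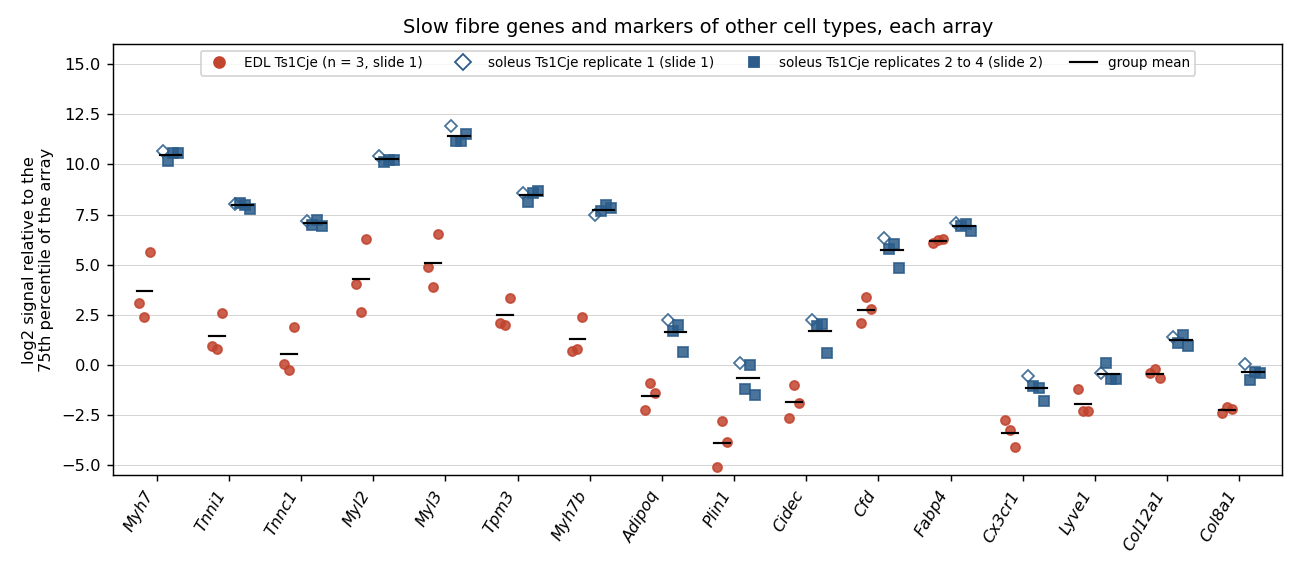
Log2 signal relative to the 75th percentile of the array (y axis) of slow fibre genes and of markers of adipocytes (Adipoq, Plin1, Cidec, Cfd, Fabp4), macrophages (Cx3cr1, Lyve1) and connective tissue (Col12a1, Col8a1) on each Ts1Cje array, red circles for EDL (n = 3), blue markers for soleus (n = 4, open for the array on the slide of the EDL) and black bars for group means. EDL replicate 3 (the third red point) is the highest EDL array for the slow fibre genes but not for Adipoq, Plin1 or Cidec, where EDL replicate 2 is highest, and soleus replicate 4 is the lowest soleus array for the first 4 adipocyte markers.

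Among the 15 largest differences in each direction, several genes are not isoforms of the paired kind. Tspan8, a tetraspanin of the cell surface, was at 2.93, 2.57 and 2.04 in EDL and -3.50, -2.93, -2.46 and -2.73 in soleus, a difference of 5.42 ± 0.37 with 3 of the 4 soleus arrays well above background. Mybph, myosin binding protein H of the thick filament, was at 3.61, 4.33 and 4.54 and -1.0, -1.19, -1.86 and -2.13 (5.71 ± 0.68). Both genes were separated between the muscles by over 4 log2 units on every pair of arrays. Mss51, a mitochondrial protein of fast fibres, was at 2.66, 2.31 and 6.2 in EDL and -1.57, -1.39, -1.39 and -2.04 in soleus, where EDL replicate 3 stood far above the others, and its difference of 5.32 ± 1.13 was not called with slide as a block (5.30, adjusted p = 0.0670). Lrtm2, a leucine-rich repeat membrane protein, and the adhesion protein Cntnap2 were not well above background on any soleus array and were at least 15.1-fold and 12.0-fold higher in EDL. Gdap1, a mitochondrial outer membrane protein tied to inherited neuropathy, was higher by 3.95 ± 0.33. Tbata (4.39 ± 0.32) and the adaptor Sh3kbp1 (4.03 ± 0.41) rest on 1 of several probes, since their kept probes ranged from -0.74 to 4.39 and from 0.85 to 4.03, and Sh3kbp1 lost its call when only probes above background on all 7 arrays were used (adjusted p = 0.122).

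On the soleus side, Fhl2, a LIM protein of the heart and of slow fibres, was at -1.19, -0.98 and -0.69 in EDL and 3.66, 3.30, 3.52 and 3.77 in soleus, a difference of -4.51 ± 0.18 (adjusted p = 2.58e-08), among the most precise of the large differences. Sbk3, a kinase gene, was lower at -4.80 ± 0.51. Tecrl, an enoyl-CoA reductase-like protein of heart, and Lrrtm4, a synaptic adhesion protein, were not well above background on any EDL array and were at least 11.0-fold and 10.7-fold lower there. Lin9, a subunit of a cell cycle complex, was at -5.18 ± 0.26 on the probe used but 0.94 on its other kept probe, so the gene's direction is unsettled. Of 16 secreted muscle factors, 6 were lower and 2 higher (median -0.64, with 1 higher without EDL replicate 2 and 0 with slide as a block). Lgi1, a secreted leucine-rich repeat protein, was at least 7.45-fold lower, the matrix protein Postn lower at -2.35 ± 0.24, Metrnl at -1.55 ± 0.19 and Fndc5, the precursor of irisin, at -1.35 ± 0.22.

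Genes of the extra chromosome 16 segment are present at the same dose in both muscles compared here. Of 54 tested (68 listed), 9 were higher in EDL, 11 lower and 34 not called (median -0.03), a share of 37.0% called against 29.9% of all genes. The lower count was 4, 6 and 7 without EDL replicate 1, EDL replicate 2 and soleus replicate 3, and with slide as a block 6 were higher and 3 lower. Called differences of at least 2-fold numbered 8. Sh3bgr, an SH3-binding protein of heart and muscle, was at 8.76, 8.52 and 8.53 in EDL and 7.39, 7.23, 7.35 and 7.33 in soleus, higher by 1.28 ± 0.12. C2cd2 was higher by 1.5 ± 0.20, Lca5l by 1.16 ± 0.13, Dop1b by 1.04 ± 0.11 and the interferon receptor subunit Ifngr2 by 0.70 ± 0.12. Synj1, a phosphoinositide phosphatase, was lower at -0.89 ± 0.11 and Chaf1b, a histone chaperone subunit, at -1.14 ± 0.21, the latter not called on the mean of its probes (adjusted p = 0.0781).

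Rcan1, a calcineurin inhibitor and a much studied gene of the segment, was at 3.59, 2.50 and 3.50 in EDL and 4.03, 5.12, 4.14 and 4.09 in soleus, lower in EDL at -1.15 ± 0.34 (adjusted p = 0.0242). EDL replicate 2 was the low EDL array and soleus replicate 2 the high soleus array, and the call was lost without the former (-0.80, adjusted p = 0.113), without the latter (-0.89, adjusted p = 0.0593) and with slide as a block (-0.83, adjusted p = 0.325). Its relative Rcan2, on another chromosome, was lower with no such loss, as given above. Sod1, superoxide dismutase, at 0.21 ± 0.13 (adjusted p = 0.223), the kinase gene Dyrk1a at -0.03 ± 0.22 (adjusted p = 0.939, of either sign by setting) and the factor Runx1 at -0.50 ± 0.18 (adjusted p = 0.0528) did not pass. Runx1 was called lower in 6 of the alternatives, among them scaling on detected probes (adjusted p = 0.0183), the mean of its 2 probes (-0.85, adjusted p = 0.0123) and the fit without EDL replicate 3 (0.0351). Usp25, on the disomic part of chromosome 16, was higher by 1.22 ± 0.12. Dnah11, a ciliary dynein in the short stretch of chromosome 12 that the Ts1Cje translocation removes from 1 copy, was at -0.35 ± 0.41 and did not pass (adjusted p = 0.545).

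The same contrast in WT littermates, on arrays of its own, called 4224 genes, 2840 higher and 1384 lower in EDL. Of the 4243 calls in Ts1Cje, 3016 were called in the same direction in WT, 1226 were not called there and 1, Uevld (named after its values were seen), was called the other way, while 59 had the opposite sign of the mean difference. Across the 14168 genes, which are not independent replicates, the differences of the genotypes correlated at 0.894. In WT all EDL arrays were on 1 slide and all soleus arrays on the other, so muscle and slide cannot be told apart there. The part of slide in the agreement between the genotypes was not tested. The test of the interaction, which asks whether the muscle difference itself differs between Ts1Cje and WT, called 0 genes in limma (0%, with 455 at an unadjusted p under 0.05), so no muscle difference is called particular to Ts1Cje.

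Of the 5 genes of smallest interaction p, 3 are markers of IIb fibres. Pvalb was at 11.78, 12.16 and 11.43 in WT EDL and 8.58, 8.57, 8.93 and 8.0 in WT soleus, a WT difference of 3.27 ± 0.22 and an interaction of 1.89 ± 0.32 (adjusted p = 0.687). Myh4 was at 11.60, 11.93 and 11.25 in WT EDL and 9.67, 9.26, 9.83 and 8.79 in WT soleus, a WT difference of 2.21 ± 0.58 and an interaction of 4.15 ± 0.82 (adjusted p = 0.898). Actn3 was at 9.36, 9.72 and 9.13 and 6.39, 6.10, 6.45 and 5.13, with an interaction of 2.13 ± 0.42 (adjusted p = 0.898). For these 3 genes the EDL levels of the genotypes overlapped, whereas every Ts1Cje soleus array lay below every WT soleus array. Without soleus Ts1Cje replicate 2, the soleus array of highest Myh4, the interaction of Myh4 alone was called (4.75, adjusted p = 0.0316). The other genes of smallest p were Nabp1, a DNA-binding protein well above background on 1 of 4 Ts1Cje soleus arrays, at 1.14 ± 0.23 and the unnamed locus 1700092C02Rik at 1.65 ± 0.34 (adjusted p = 0.898 for both).

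**Figure D5:**
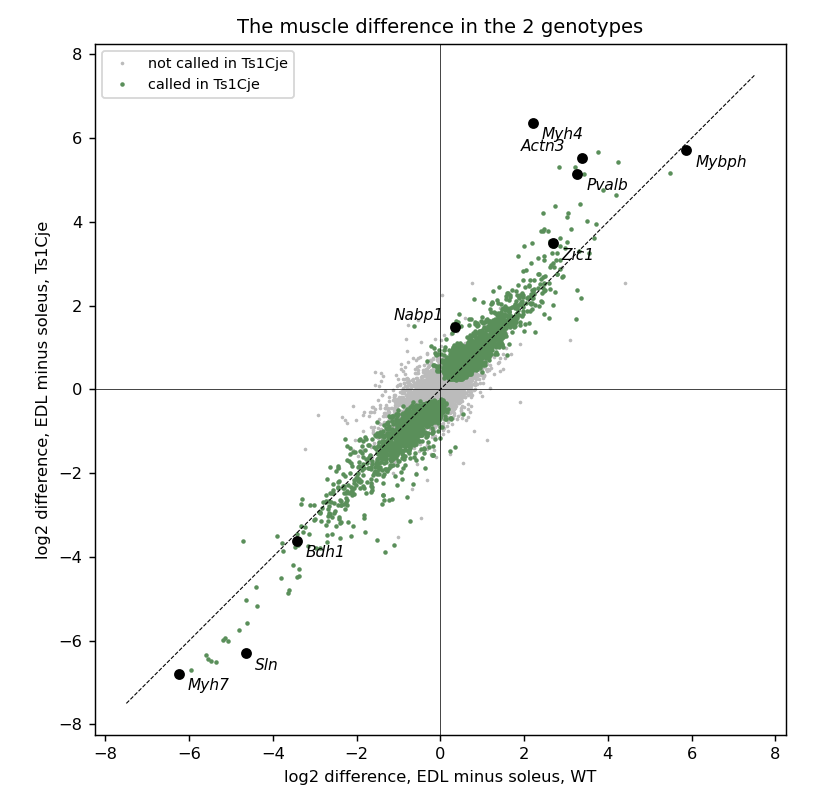
Each point is 1 of 14168 genes, with the log2 difference between EDL and soleus in WT mice on the x axis and in Ts1Cje mice on the y axis, green where called in Ts1Cje, and a dashed line of equality. Points follow the line (r = 0.894 across genes), Myh7, Sln, Mybph, Zic1 and Bdh1 are named as reference points, and Myh4, Pvalb and Actn3, 3 of the 5 genes of smallest interaction p, stand above the line.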

How the data were processed

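Arrays were Agilent 1-colour designs scanned with Feature Extraction, for which the file headers give version 11.5.1.1 and mouse build mm9 and the submitters' processing notes version 9.1. The deposited files hold the intensity of each spot after background subtraction, per the file headers, and the authors' table holds log2 values scaled to the 75th percentile and centred on each probe's median, as set against the scanner values. Spots of 1 probe (55681 probes, control spots left out) were averaged as intensities before logs were taken. Spots flagged as outliers were dropped unless all spots of the probe were flagged. The level is the log2 of that mean minus the log2 of the array's 75th percentile. Kept were the 25190 probes that all arrays of 1 or more groups measured well above background, of which 18516 had a symbol, updated through RefSeq. Each of 14168 genes was read by its brightest kept probe. limma 3.58.1 in R 4.3.3 was fitted to the 4 groups over 14 arrays, with a gene called at a Benjamini-Hochberg adjusted p under 0.05 over all genes, and precision is limited by the number of arrays. In simulated data of 14168 genes, 67, 67 and 66 genes were changed 1.5-fold, 2-fold and 4-fold in this comparison. The fit recovered 28.4%, 62.7% and 93.9% of them, with 8 false of 131 calls. Far fewer genes were changed there than were called in the real arrays, so these shares do not measure recovery in the real arrays.

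The members and the gene lists were chosen with earlier results of these data known, so the lists are described by counts and medians and not tested. Genes named were the 15 largest called differences in each direction (clones and predicted genes passed over), a fixed set of fibre type and chromosome 16 genes, up to 8 called members of smallest p in each list and the 5 genes of smallest interaction p. Some genes of this rule are not reported here. Smtnl1 and Uevld were named after their values were seen. Alternatives changed the background correction, normalization, filter, probe rule, variance model and slide or replicate block, and left out single arrays. Deviations of same-numbered EDL and soleus arrays correlated at -0.09, -0.16 and 0.12, and those of other pairs at -0.14 to 0.23. With so few arrays these values cannot settle whether replicate numbers pair the muscles.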

Additional observations from a re-analysis of the deposited data

Results flagged for a closer look

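With 4 soleus arrays, an array was looked for whose gap to the nearest other passed Dixon's critical value, which chance gives in about 1 in 20 groups. Of 169 genes, 12 had such an array, soleus replicate 4 in 5 of them, replicates 1 and 2 in 3 each and replicate 3 in 1. Soleus replicate 4 was lowest for Tnnt3 (9.98), Ndufb3 (6.66) and Tbx4 (-0.094), and highest for Myoz3 (4.27) and Lgi1 (0.78). Soleus replicate 2 was lowest for Tpm3 (8.13) and highest for Ufsp1 (1.97) and Rcan1 (5.12). Soleus replicate 1, the array on the slide of the EDL, was lowest for Nr4a1 (3.87) and Dyrk1a (1.44) and highest for Chaf1b (0.83). Soleus replicate 3 was highest for Ppp3ca (4.18). Of these, the call for Rcan1 was lost without the far array, and the other called genes kept their calls without any 1 array.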

How the results depend on the processing

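The direction of the 161 named genes called was kept under every alternative that gave a value, and 128 of them were called under each such alternative. Of the 161, 16 had no value when only probes above background on all 7 arrays were used, and 118 were called in every fit with a value in all. The total of 4243 calls became 2070 with slide as a fixed block (1261 higher, 809 lower) and 1189 with a 2-fold minimum (605 and 584). Normexp correction, which used median signals, called 1504 genes higher and scaling on probes detected on all arrays 2650 lower. With single arrays left out, totals ran from 2958 to 4163, higher from 1828 to 2496, lower from 1130 to 1689 and interaction calls from 0 to 1. The replicate block, whose numbers the labels do not tie to animals, called 1754 genes (1022 and 732). A random block of same-numbered Ts1Cje and WT arrays of a muscle, a number the labels tie to no litter, called 4249. Of genes not called, Myh1 turned to -0.13 under quantile normalization and Slc16a1 to 0.041 under normexp. Mybpc1 turned to -0.11 under normexp, -0.34 under quantile normalization, where it was called (adjusted p = 0.0152), -0.024 on detected probes and -0.016 on mean probes. Ppargc1a turned to -0.17, -0.10, -0.10 and -0.036 under these, and with 1 array left out ran from -0.26 (without EDL replicate 1) to 0.34, below 0 also without soleus replicate 1 or 3. Dyrk1a turned to 0.0034 on mean probes, 0.26 and 0.00072 with slide as a fixed and random block, 0.011 with the replicate block, and with 1 array left out ran from -0.15 to 0.20, above 0 without EDL replicate 2 or soleus replicate 2 or 4. The cause of these turns was not tested. Genes dim in 1 muscle have only a bound, and 30 genes called higher and 121 called lower are of that kind.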

Other observations

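Other lists were mixed or held few calls, beside 29.9% of all genes called. Of 17 genes of polyamine and amino acid metabolism 5 were higher and 5 lower (median -0.22, with 3 lower without EDL replicate 1 or soleus replicate 3, 2 without EDL replicate 3 and 4 in each direction with slide as a block). Of 20 genes of ketone and branched-chain amino acid use 3 were higher and 4 lower (median 0.07). The higher count was 1 without EDL replicate 1 or soleus replicate 4, and the lower count 2 without EDL replicate 1 or 2 or soleus replicate 2, 3 or 4 and 1 with slide as a block. Of 16 clock genes tested 3 were higher in EDL and 0 lower (median 0.21, with 1 higher when slide was a block). Of 23 genes of atrophy ligases, autophagy and growth 7 were higher and 1 lower (median 0.29, with 2 lower without EDL replicate 1 or soleus replicate 1, and 2 in each direction with slide as a block). Of 24 antioxidant enzymes 4 were called in each direction (median 0.05, with 2 higher without EDL replicate 1 or with slide as a block). Of 31 interferon-stimulated genes 3 were lower (median -0.30, with 1 without EDL replicate 1 and 7 with slide as a block).

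Probes with no gene symbol also differed between the muscles. Of 6674 kept, 780 were higher in EDL and 571 lower (20.2% called), among them 484 and 377 of 4328 probes for long intergenic RNAs (19.9%). Extremes were looked for only among the called long intergenic RNA probes that were well above background on all 7 Ts1Cje arrays. The highest of those lies at chr9:20323037-20323096 on build mm9, with a mean level of 7.27 in EDL and 1.85 in soleus. Its difference was 5.42 ± 0.24, as large as that of Tspan8. The lowest of those lies at chr2:71588143-71588202, with means of 1.68 and 4.66 and a difference of -2.98 ± 0.25. The transcripts behind these probes were not identified.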
